A study of Homo sapiens with 12 samples.

Results

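Silencing of HCP5, a gene for a long non-coding RNA, was followed by RNA sequencing in KYSE510, an established human line of esophageal squamous cell carcinoma. Control KYSE510 cells and KYSE510 cells with HCP5 silenced gave 3 libraries each, numbered 1 to 3 in both groups. Both groups were grown in RPMI-1640 medium with fetal bovine serum, and no other treatment is named. The 6 other libraries of the series come from KYSE150, a second such line, with 3 controls and 3 silenced libraries of its own. Library titles begin with sh in both groups, a code that the labels do not explain. The labels spell out no silencing reagent, clone or selection, and they do not say whether libraries of a group came from separate cultures. P-values therefore measure the spread between these libraries, which may be technical.

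The genes described are those with an RPKM (reads divided by the length of a gene's exons and by the reads of its library) of at least 0.5 in at least 3 of the 6 KYSE510 libraries. They number 16185, of 17823 genes tested over all 12 libraries and 38516 in the deposited table. At the edge of this rule, 503 genes reached 0.5 in exactly 3 libraries, with a median of their mean RPKM of 0.514. The 571 genes that reached it in exactly 2 libraries, just outside, had a median of 0.430. Of the 16185 genes, 28 entered through the 3 controls alone and 25 through the 3 silenced libraries alone.

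KYSE510 libraries held 21116344 to 27513023 reads assigned to genes, so that 3 reads on a gene of 1 kb give an RPKM of 0.109 to 0.142. Mitochondrial genes took 10.2% to 11.5% of reads. Squamous epithelium markers were measured for 12 of 12 genes, among them KRT5, TP63 and SOX2, with a summed level of 1610 to 2148 RPKM in controls and 1980 to 3220 in silenced libraries. Of 11 fibroblast markers 3 were measured, with sums over all 11 of 3.55 to 3.72 and 3.17 to 3.81 RPKM, and PDGFRA was listed at 0. Of 11 matched immune markers 2 were measured, CD68 and CD74. The sums over all 11 were 38.9 to 49.1 and 33.0 to 54.6 RPKM, and MS4A1 was listed at 0. Of 7 endothelial markers 1 was measured, CDH5, at 0.934 to 1.996 RPKM in controls and 0.587 to 2.03 in silenced libraries. The sums over all 7 were 1.42 to 2.45 and 1.05 to 2.48 RPKM, and KDR was listed at 0. The ranges of the last 3 lists overlapped between groups, and those of the squamous list overlapped too, with its highest silenced library above every control. In such bulk libraries, fewer cells of a type and less RNA per cell cannot be told apart.

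HCP5 lies in the class I region of the major histocompatibility complex and is transcribed without coding a known protein. Long non-coding RNAs can act by binding proteins or other RNAs, or by pairing with microRNAs. The title of the series links HCP5 to c-Myc, the growth-promoting transcription factor encoded by MYC, and to UTP3, a nucleolar protein of ribosome assembly. Squamous carcinoma cells keep programs of the stratified epithelium they arise from: basal cells hold to the basement membrane by hemidesmosomes, and cells above them make keratins and envelope proteins as they differentiate.

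HCP5 was low in this line, and its level in silenced libraries averaged 57.6% of control. Its RPKM was 0.914, 1.85 and 1.40 in controls 1 to 3 and 0.505, 0.951 and 0.948 in silenced libraries 1 to 3, on 38 to 147 reads. Each silenced library lay below the control of its number, but silenced libraries 2 and 3 lay above control 1, so the groups overlapped. The means were 1.39 ± 0.470 and 0.801 ± 0.257 RPKM (SD, n = 3). On the log2 scale they differed by -0.53 (SE 0.20), with a limma adjusted p of 0.646, or 0.134 with libraries paired by number. In voom on recovered reads with pairs the change was -0.78 with an adjusted p of 0.0318, and 0.106 to 0.373 when any pair was left out. Permuting the 6 libraries exactly gave a two-sided p of 0.3, and such a test cannot go below 0.1. Exons of HCP5 share 62 bases with MICA on the same strand and 157 with an antisense gene, so part of its reads is uncertain.

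MYC and UTP3 did not pass the test in KYSE510. MYC had 59.6, 61.8 and 80.9 RPKM in controls against 53.8, 53.8 and 76.6 in silenced libraries. Each silenced library lay below its own control, while library 3 was the highest of both groups and the groups overlapped. The change was -0.14 on the log2 scale, with a limma adjusted p of 0.976 (0.355 with pairs, and 0.285 with voom on reads and pairs). UTP3 had 48.9, 49.97 and 44.0 RPKM in controls against 44.7, 52.5 and 50.6 in silenced libraries, which overlapped, with a change of 0.05 and a limma adjusted p of 0.976.

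**Figure D1:**
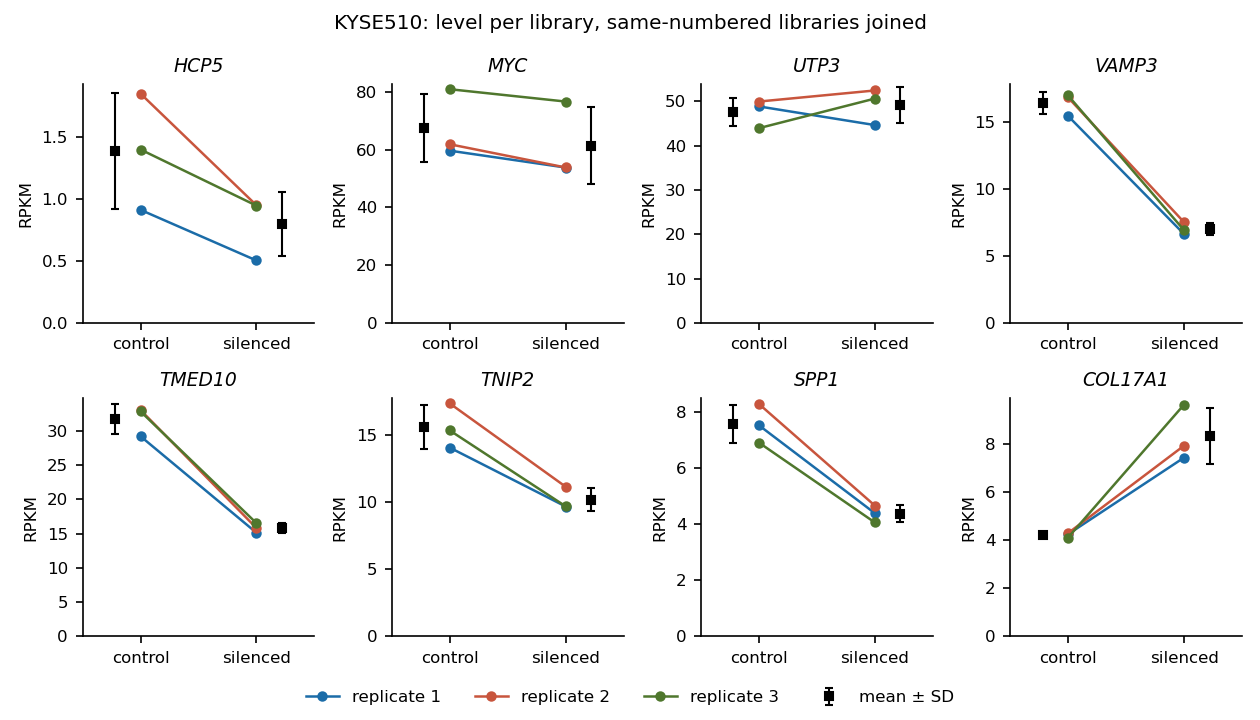
RPKM of HCP5, MYC, UTP3, VAMP3, TMED10, TNIP2, SPP1 and COL17A1 in the 3 control and 3 silenced KYSE510 libraries, with a line joining libraries of the same number and a panel for each gene. VAMP3, TMED10, TNIP2 and SPP1 were lower and COL17A1 higher in every silenced library than in every control, while the groups overlapped for HCP5, MYC and UTP3.

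Few genes passed when libraries were compared without regard to their numbers. A limma fit on log2(RPKM + 0.5) over all 12 libraries called 7 genes in KYSE510, which is 0.0393% of the 17823 tested, with 4 higher (0.0224%) and 3 lower (0.0168%). At an unadjusted p under 0.05 there were 1132 genes. The split was 6 higher and 2 lower after centring each library on its median, 8 and 3 after quantile normalization, and 20 and 24 with no filter on low values. Libraries of the same number deviated together from their group means, so the same fit was run with pairs as a block. This paired limma fit called 20 genes (0.112%), with 15 higher (0.0842%) and 5 lower (0.0281%), and 5 of the first 7 were among them. The last fit, voom on the reads recovered from RPKM with the same pairs, weights each value by its depth and is called the paired voom fit here. It called 397 genes (2.23%), with 241 higher (1.35%) and 156 lower (0.875%).

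Of these 397 genes, 383 met the rule for KYSE510, with 227 higher and 156 lower. All 383 moved the same way in each of the 3 pairs, as 6334 of all 16185 genes did (39.1%). Changes of at least 2-fold were seen in 33 of the 383 called genes, 29 higher and 4 lower. Each fit leans on all of its libraries. Without control 1, control 3, silenced 1 or silenced 3 the limma count of 7 became 2, and without control 2 it became 4. Fitted to the 6 KYSE510 libraries alone, limma called 0 genes (1338 at an unadjusted p under 0.05), and voom with pairs called 681. The paired limma count of 20 became 2 without pair 2 and 0 without pair 3 (1602 at an unadjusted p under 0.05), and 5 without pair 1. The paired voom count became 243 without pair 1 (122 higher and 121 lower), 63 without pair 2 (53 and 10) and 55 without pair 3 (44 and 11). Of the 70 genes named here that the paired voom fit called, 23 passed in all 3 of those fits, 7 in 2, 17 in 1 and 23 in 0.

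The falls with the lowest adjusted p were in genes of membrane traffic. VAMP3, a vesicle SNARE protein of recycling endosomes (GRCh38 chr1:7771269-7781432, plus strand), had 15.4, 16.8 and 17.0 RPKM in controls against 6.63, 7.51 and 6.92 in silenced libraries. TMED10, a cargo receptor that cycles between the endoplasmic reticulum and the Golgi (chr14:75131470-75176631, minus strand), had 29.2, 33.0 and 32.8 in controls against 15.1, 15.8 and 16.5 in silenced libraries. Neither gene's groups came near to overlapping. VAMP3 had a log2 change of -1.17 (SE 0.11) and passed limma at an adjusted p of 0.00375. In the 6 fits without 1 KYSE510 library the adjusted p was 0.0192 to 0.0435. TMED10 had a change of -0.98 (SE 0.08) and passed limma at an adjusted p of 0.000876, and those 6 fits gave 0.00183 to 0.0125.

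Most other members of these gene families did not pass, and nor did most genes. The paired voom fit called 2.23% of all genes tested, so few passes in a family do not set it apart. Among 30 SNARE genes measured, VAMP3 fell in the paired limma fit and the median change was -0.003 (0.02 after centring or quantile normalization), against -0.03 over all 16185 genes. The paired voom fit added a fall of NSF, the ATPase that takes SNARE complexes apart, and a rise of VAMP7, a SNARE of late endosomes. NSF had 8.79, 9.84 and 10.1 RPKM in controls against 7.14, 7.73 and 8.3 in silenced libraries (-0.31, SE 0.07, voom adjusted p 0.0267). VAMP7 had 4.13, 5.68 and 5.23 in controls against 7.24, 7.76 and 7.49 in silenced libraries (0.58, SE 0.09, voom adjusted p 0.00496). The groups were apart in both. Of 9 TMED genes, 1 passed, TMED10, while the median was -0.09 and 8 were below 0. Of 33 genes of the COPI and COPII coats, which shape the vesicles that TMED proteins sort into, 30 were below 0 with a median of -0.08, 16 were lower in all 3 pairs (48.5%, against 22.9% of all 16185 genes), and 1 passed in the paired voom fit. This was SURF4, a cargo receptor listed with them, at 32.1, 36.0 and 35.6 RPKM in controls against 24.8, 22.9 and 26.6 in silenced libraries (-0.48, SE 0.10, voom adjusted p 0.0184).

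SPP1 encodes osteopontin, a secreted phosphoprotein that binds integrins and CD44. It had 7.54, 8.3 and 6.92 RPKM in controls against 4.40, 4.67 and 4.07 in silenced libraries (chr4:87975650-87983426, plus strand). Every silenced library was below every control. SPP1 fell by 0.73 (SE 0.09; limma adjusted p 0.0444, and 0.0394 with pairs), and in the 6 fits without 1 KYSE510 library its limma adjusted p was 0.0556 to 0.178. Of 7 genes for SPP1 and its receptors that were measured, the 6 receptor genes were all above 0. ITGA5, the receptor subunit for fibronectin, passed in the paired voom fit, at 0.384, 0.292 and 0.835 RPKM in controls against 0.820, 0.400 and 1.47 in silenced libraries, which overlapped (0.82, SE 0.15, voom adjusted p 0.00877).

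A further 2 falls passed in the limma fit with pairs and not in that without. TNIP2, an inhibitor of NF-kappa-B signalling, had 14.1, 17.3 and 15.3 RPKM in controls against 9.67, 11.1 and 9.68 in silenced libraries, with no overlap (-0.59, SE 0.07; paired limma adjusted p 0.0493). SLC16A14, a member of the monocarboxylate transporter family, had 2.82, 3.86 and 2.54 in controls against 1.57, 2.42 and 1.14 in silenced libraries (-0.72, SE 0.08; paired limma adjusted p 0.0482). Its groups were separated by a narrow gap, and each silenced library lay below its own control. PEX3, which starts the assembly of peroxisome membranes, had 7.65, 7.94 and 8.21 in controls against 5.72, 5.12 and 5.19 in silenced libraries, and fell in the paired voom fit (-0.57, adjusted p 0.00774). It was the only 1 of 20 measured peroxisome genes to pass there, where 0.875% of all genes tested fell.

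Several of these falling transcripts share a short word with HCP5 itself. A guide strand of a silencing hairpin can pair with 3′ UTRs of other transcripts through a stretch of a few bases, and a transcript targeted in this way is usually lowered modestly. All words of 7 bases found in the 3′ UTRs of at least 500 measured genes, 11193 in all, were therefore compared by the median log2 change of the genes that hold them, over 10841 coding genes with a 3′ UTR in GENCODE release 29. The lowest median belonged to TCACCTA, at -0.051 (865 genes), followed by the overlapping word CACCTAA at -0.047. The median of all 11193 word medians was -0.019. The word was singled out by this ranking and had already been noted in these data, so its place is a description with no test. The HCP5 transcript, 2658 bases long, holds TCACCTA at 2 places. Shown here are the 2 places in HCP5 and the 3′ UTR places in 4 genes that fell, each as 22 bases read 5′ to 3′ in the sense of the transcript from GENCODE 29 on GRCh38, with the word in capitals.
HCP5 (chr6:31464633-31464654, plus strand): tagggtctggttggTCACCTAa
HCP5 (chr6:31465351-31465372, plus strand): ggcatcctcctatgTCACCTAg
VAMP3 (chr1:7781390-7781411, plus strand): cttacccactgtaaTCACCTAa
TMED10 (chr14:75134634-75134655, minus strand): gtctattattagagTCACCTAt
PEX3 (chr6:143489273-143489294, plus strand): atacactgggtaaaTCACCTAt
PEX3 (chr6:143489888-143489909, plus strand): ttgatgctgtttacTCACCTAa
NEK7 (chr1:198319663-198319684, plus strand): tcattttgtaccagTCACCTAa
NEK7 (chr1:198321786-198321807, plus strand): tctaatttatatagTCACCTAt

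A g stands directly before the word in 5 of these 8 places. Within the bases shown, the longest run around the word shared with either HCP5 place was 9 bases, in NEK7 (gtcacctaa). Those of VAMP3, TMED10 and the second PEX3 place were 8 bases and that of the first PEX3 place the word alone. Each stretch shown ends at the base after the word. The runs of VAMP3, the second PEX3 place and that NEK7 place reach this end, so their full lengths were not measured. NEK7, a mitotic kinase named after its values were seen, had 1.70, 2.18 and 2.47 RPKM in controls against 0.996, 1.02 and 1.5 in silenced libraries, with no overlap (-0.85 in the paired voom fit, adjusted p 0.00188). The 3′ UTRs of SRXN1 and AKR1C2, which fell in the paired voom fit, and of MYC, which did not pass, each hold 1 copy. Those of SPP1, SLC16A14, GCLM and FTL hold 0, so the word does not mark every fall. That of MMP2, which rose in the paired voom fit, holds 1 copy, so the word does not mark falls alone.

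Genes with more copies of TCACCTA lay lower. The word was picked from these same KYSE510 changes, so the KYSE510 values below, split by length or not, describe it and test nothing. The 9976 genes with 0 copies had a median log2 change of -0.02, the 779 with 1 copy -0.05, and the 86 with 2 or more -0.08. The shares lower in all 3 pairs were 23.0%, 32.6% and 44.2%. The shares that fell in the paired voom fit were 0.892%, 4.37% and 12.8%, on 89, 34 and 11 genes. Copies grow with length: the median 3′ UTR of the 3 classes was 1210, 2922 and 5721 bases. When genes were split evenly into short, middle and long 3′ UTRs, genes with at least 1 copy had medians of -0.08, -0.05 and -0.05, and genes without had -0.03, -0.01 and -0.01. Of the 134 of these genes that fell in the paired voom fit 45 hold the word (33.6%), and of the 198 that rose 10 do (5.05%), while 7.98% of all 10841 do. Neither reagent sequence is given in the sources used here, and the part of the reagent in these falls was not tested. The same word also had the lowest median in KYSE150 (0.044, against 0.092 over all 10841 genes).

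**Figure D2:**
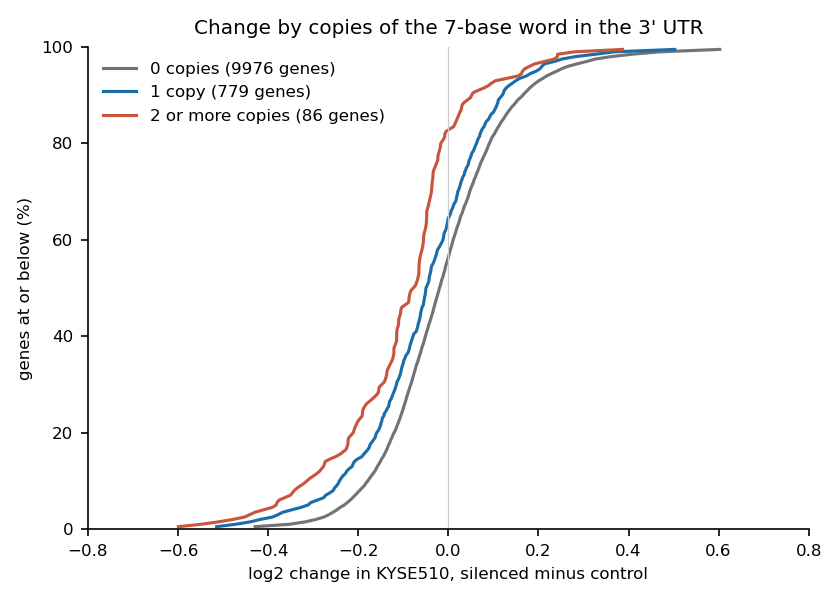
Cumulative share of genes against log2 change in KYSE510 (silenced minus control) for coding genes with 0 (9976), 1 (779) and 2 or more (86) copies of TCACCTA in the 3′ UTR. The curves shift to the left with the number of copies, from a median of -0.02 to -0.05 and -0.08. The word was picked from these same changes, so the shift is a description with no test.

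Of the 4 rises of the unpaired limma fit, 2 were collagen genes. COL17A1 encodes collagen XVII, a transmembrane protein of the hemidesmosome (chr10:104031286-104086002, minus strand). It had 4.25, 4.30 and 4.12 RPKM in controls against 7.44, 7.94 and 9.65 in silenced libraries, with no overlap and 198% of the control mean. COL17A1 rose by 0.90 (SE 0.13; limma adjusted p 0.0481, and 0.0394 with pairs), and in the 6 fits without 1 KYSE510 library the limma adjusted p was 0.103 to 0.205. COL5A1, a chain of fibril-forming collagen V (chr9:134641774-134844843, plus strand), had 2.98, 2.62 and 2.54 RPKM in controls against 4.72, 4.53 and 4.43 in silenced libraries. COL5A1 rose by 0.66 (SE 0.09), with limma adjusted p-values of 0.0481 without pairs and 0.0498 with them, and in those 6 fits the limma adjusted p was 0.0593 to 0.205.

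Genes with clone names made up the other 2 rises of the unpaired fit. RP11-343H19.2 had 5.13, 3.52 and 4.35 RPKM in controls against 7.49, 8.77 and 9.48 in silenced libraries (0.92, SE 0.13; limma adjusted p 0.0481, and 0.0693 with pairs). Of its 551 exon bases, 321 also belong to MT1X and 230 to DPPA2P4 on that strand, so the reads of the 3 genes cannot be told apart. RP3-522D1.1 had 1.91, 1.62 and 1.80 in controls against 3.27, 2.98 and 3.83 in silenced libraries on 24 to 56 reads (0.76, SE 0.10; limma adjusted p 0.0481, and 0.0520 with pairs), and 68.1% of its exon bases lie opposite LINC01356. Neither gene's groups overlapped. In the 6 fits without 1 library, RP11-343H19.2 passed in 0 and RP3-522D1.1 in 1.

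**Figure D3:**
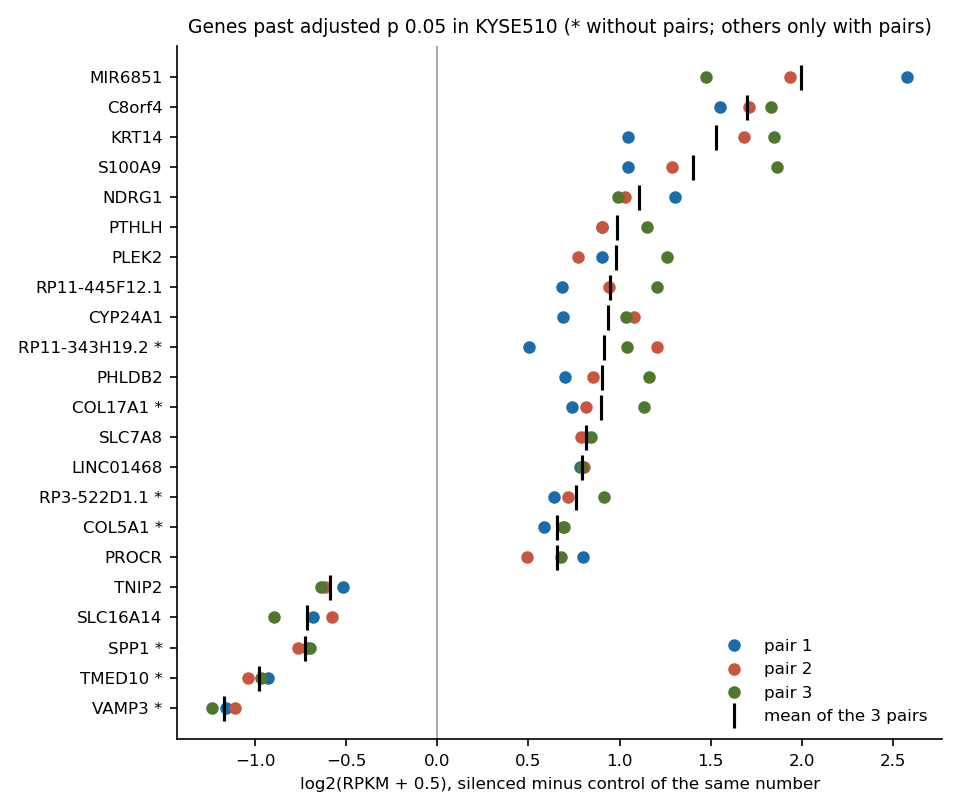
Log2 change within each of the 3 same-numbered KYSE510 pairs (points) and their mean (bars) for the 22 genes called by limma with or without pairs; an asterisk marks genes that pass without pairs. All 3 points lie on the same side of 0 for each gene, and VAMP3, TMED10, SPP1, TNIP2 and SLC16A14 are the genes on the lower side.

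Pairing brought out 13 further rises, each of them higher in all 3 pairs, with steps that could differ in size between pairs. NDRG1, a stress- and hypoxia-responsive gene, had 2.70, 3.87 and 3.36 RPKM in controls against 7.41, 8.44 and 7.17 in silenced libraries (1.11, SE 0.08; paired limma adjusted p 0.0152). C8orf4, a small gene also called TCIM that is tied to Wnt signalling, had 0.561, 0.598 and 1.53 in controls against 2.61, 3.09 and 6.72 in silenced libraries (1.70, SE 0.09; paired limma adjusted p 0.00426). KRT14, the basal keratin that pairs with keratin 5, had 6.78, 4.88 and 5.13 in controls against 14.5, 16.8 and 19.8 in silenced libraries (1.53, SE 0.14; paired limma adjusted p 0.0394). None of these 3 genes overlapped between groups. S100A9, a calcium-binding alarmin of differentiating and inflamed epithelium, had 11.4, 6.93 and 14.5 in controls against 24.1, 17.6 and 54.1 in silenced libraries (1.40, SE 0.14; paired limma adjusted p 0.0394). Its pair 3 was the highest in both groups, and the groups did not overlap.

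Several genes with wide library spread rose within each pair. PTHLH, which encodes parathyroid hormone-related protein, had 6.78, 3.26 and 6.44 RPKM in controls against 13.1, 6.52 and 14.9 in silenced libraries (0.99, SE 0.08; paired limma adjusted p 0.0251). PLEK2, a pleckstrin-family protein of the actin cytoskeleton, had 10.9, 7.28 and 13.5 in controls against 20.8, 12.8 and 33.0 in silenced libraries (0.98, SE 0.10; paired limma adjusted p 0.0394). The groups of both genes overlapped, and library 2 was the lowest of each group. PHLDB2, which anchors microtubules near focal adhesions, had 1.49, 0.997 and 2.10 in controls against 2.73, 2.20 and 5.32 in silenced libraries (0.90, SE 0.09; paired limma adjusted p 0.0394). CYP24A1, the enzyme that breaks down active vitamin D, had 1.28, 0.369 and 1.33 in controls against 2.37, 1.33 and 3.24 in silenced libraries (0.93, SE 0.11; paired limma adjusted p 0.0498). PHLDB2 was apart by a narrow gap, and for CYP24A1 silenced library 2 fell at the level of control 3.

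The remaining rises of the paired limma fit were a long non-coding RNA, 2 membrane proteins and 2 small or clone-named genes. LINC01468 had 38, 33.3 and 27.0 RPKM in controls against 65.7, 58.5 and 47.2 in silenced libraries (0.79, SE 0.08; adjusted p 0.0394 in limma with pairs). SLC7A8, an amino acid exchanger, had 0.826, 0.647 and 0.510 in controls against 1.83, 1.48 and 1.31 in silenced libraries (0.81, SE 0.09; limma adjusted p 0.0466 with pairs). PROCR, the endothelial protein C receptor, had 0.858, 1.94 and 1.69 in controls against 1.87, 2.93 and 3.01 in silenced libraries, which overlapped (0.66, SE 0.07; limma adjusted p 0.0482 with pairs). It shares 218 exon bases with a gene on the opposite strand. RP11-445F12.1 had 0.801, 0.669 and 0.586 in controls against 1.59, 1.75 and 2.01 in silenced libraries (0.95, SE 0.10; limma adjusted p 0.0466 with pairs). MIR6851, a microRNA precursor counted on 0 to 4 reads, had an adjusted p of 0.0482 in limma with pairs and 0.0564 in the paired voom fit, and was the only 1 of the 20 that the paired voom fit did not call.

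Keratins and differentiation genes of squamous epithelium leaned upward. Of 29 measured, 22 were above 0 with a median of 0.20, against -0.03 over all 16185 genes, and 16 were higher in all 3 pairs (55.2%, against 16.3%). In the paired voom fit 7 rose, KRT14, S100A9, S100A7, IVL, KRT6A, KRT5 and SBSN, and 0 fell, where 1.35% of all genes tested rose and 0.875% fell. KRT5, the most abundant keratin of basal cells, had 263, 258 and 205 RPKM in controls against 392, 362 and 412 in silenced libraries, with no overlap (0.69, SE 0.08, voom adjusted p 0.000722). The keratin KRT6A of activated epithelium had 28.1, 10.2 and 25.8 in controls against 41.1, 14.1 and 73.5 in silenced libraries (0.89, SE 0.15, voom adjusted p 0.00690). Involucrin (IVL), an early protein of the cornified envelope, had 4.33, 0.864 and 5.79 in controls against 6.39, 1.72 and 15.0 in silenced libraries (1.04, SE 0.14, voom adjusted p 0.00158). Groups overlapped for both, with library 2 low in both groups and silenced library 3 high. S100A7 (psoriasin) had 0.388, 0.0738 and 1.02 in controls against 1.17, 0.530 and 4.95 in silenced libraries on 1 to 66 reads (2.08, SE 0.32, voom adjusted p 0.00394). SBSN (suprabasin) had 16.9, 10.3 and 11.8 in controls against 21.3, 14.1 and 25.8 in silenced libraries (0.65, SE 0.13, voom adjusted p 0.0143).

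Fewer of these genes passed without pair 3. Then 3 members of the squamous list rose in the paired voom fit, against 8 without pair 1 and 6 without pair 2. KRT14, KRT5 and S100A9 passed in all 3 fits. Without pair 3 the change of IVL was 0.67 (voom adjusted p 0.157), of KRT6A 0.51 (0.105) and of SBSN 0.39 (0.260), which also did not pass without pair 2 (0.74, voom adjusted p 0.0864). S100A7 still had a change of 1.80 without pair 3, at a voom adjusted p of 0.250. Keratins of one type are close copies of each other and of pseudogenes, so their reads may be split in ways the table does not show. KRT16P6, a pseudogene of keratin 16, itself had 1.31, 0.768 and 1.2 RPKM in controls against 3.10, 2.53 and 3.73 in silenced libraries (1.51, SE 0.19, voom adjusted p 0.000866).

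Genes that anchor basal cells to their matrix also leaned upward. Of 17 hemidesmosome and laminin genes, 15 were above 0 with a median of 0.22, and 11 were higher in all 3 pairs (64.7%, against 16.3% of all genes). In the paired voom fit 5 rose (1.35% of all genes did), among them COL17A1, KRT14, KRT5 and ITGA6, and 0 fell. The count of rises was 5, 4 and 3 without pairs 1, 2 and 3. KRT14 and KRT5 also stand on the squamous list. ITGA6, the laminin-binding integrin subunit of hemidesmosomes, had 25.1, 28.1 and 30.2 RPKM in controls against 33.1, 37.6 and 50.6 in silenced libraries, with no overlap (0.52, SE 0.07, voom adjusted p 0.00184, and 0.0651 without pair 3).

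Collagens moved less uniformly. Of 16 measured collagen genes 11 were above 0 with a median of 0.12. In the paired voom fit 4 rose, COL17A1, COL5A1, COL4A2 and COL4A6, and 1 fell, COL27A1, against 1.35% and 0.875% of all genes. COL4A2, a basement membrane chain, had 8.16, 6.91 and 5.41 RPKM in controls against 10.1, 9.10 and 9.72 in silenced libraries (0.51, SE 0.09, voom adjusted p 0.00965). COL4A6 had 0.896, 1.12 and 0.767 in controls against 1.15, 1.46 and 1.23 in silenced libraries (0.47, SE 0.11, voom adjusted p 0.0456). The groups of both were apart. COL27A1, a cartilage collagen, had 3.40, 4.37 and 3.95 in controls against 2.68, 3.69 and 3.26 in silenced libraries, which overlapped (-0.29, SE 0.07, voom adjusted p 0.0379).

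Of 17 measured matrix proteases and their inhibitors 12 were above 0 with a median of 0.03 (-0.07 without control 2 and -0.10 without silenced 3), and 3 rose in the paired voom fit (1.35% of all genes did), among them PLAU and MMP2. PLAU, the urokinase-type plasminogen activator, had 3.95, 2.98 and 4.88 RPKM in controls against 5.52, 3.44 and 7.38 in silenced libraries (0.46, SE 0.11, voom adjusted p 0.0397). MMP2, a gelatinase, had 0.236, 0.249 and 0.332 in controls against 0.667, 0.518 and 0.579 in silenced libraries (1.09, SE 0.20, voom adjusted p 0.0108). PLAU overlapped between groups, and MMP2, on 28 to 79 reads, did not. Without pair 2 or without pair 3 none of the 17 genes passed.

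The list for the epithelial-mesenchymal transition holds genes of both cell states, and they are given apart, a split made after their values were seen. All 11 measured epithelial genes were below 0, with a median of -0.07 and 4 lower in all 3 pairs (9 were below 0 after centring or quantile normalization, and 8 to 11 without 1 library). None of the 11 passed in the paired voom fit, where 2 had an unadjusted p under 0.05. The tight junction gene CLDN4 had 7.02, 8.58 and 10.2 RPKM in controls against 6.24, 5.49 and 7.16 in silenced libraries, which overlapped (-0.44, SE 0.11, voom adjusted p 0.0549), and E-cadherin (CDH1) had a change of -0.07 (voom adjusted p 0.707). Of the 11 mesenchymal genes 6 were above 0, with a median of 0.19 (-0.04 without silenced 3), and in the paired voom fit 3 rose (1.35% of all genes did) and 1 fell (0.875%). FN1, fibronectin, had 5.45, 4.21 and 6.50 RPKM in controls against 8.83, 6.51 and 11.3 in silenced libraries (0.71, SE 0.07, voom adjusted p 0.000153). SNAI2, the repressor of E-cadherin also known as Slug, had 3.5, 3.52 and 3.11 in controls against 4.75, 5.17 and 7.54 in silenced libraries (0.79, SE 0.14, voom adjusted p 0.00960). TGFBI, a secreted adhesion protein, had 73.5, 72.0 and 75.4 in controls against 97.2, 85.7 and 92.5 in silenced libraries (0.32, SE 0.07, voom adjusted p 0.0217). All 3 were apart between groups, FN1 by a narrow gap. ACTA2, smooth muscle actin, had 1.76, 1.77 and 1.29 in controls against 1.16, 1.13 and 0.594 in silenced libraries and fell (-0.75, SE 0.16, voom adjusted p 0.0250). FN1 passed without each pair in turn, and ACTA2 and TGFBI passed in none of those fits.

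**Figure D4:**
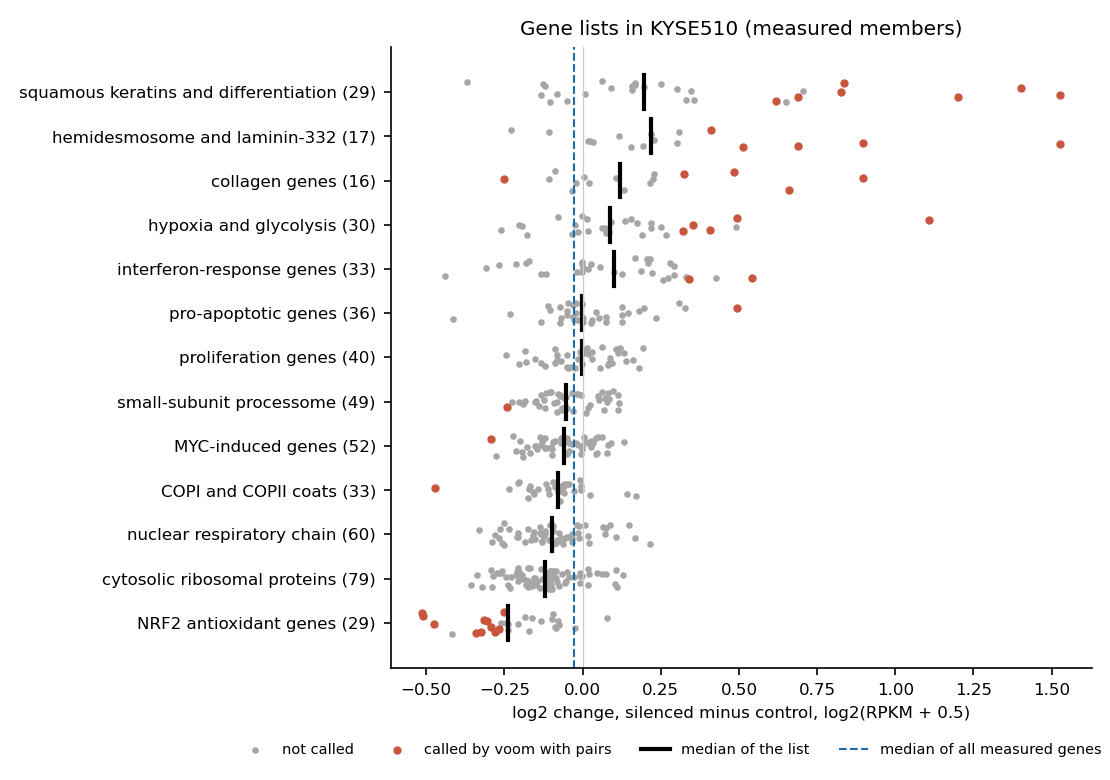
Log2 change in KYSE510 of each measured member of 13 gene lists, with the median of each list as a bar and members called by the paired voom fit in red. Medians run from -0.24 for NRF2 antioxidant genes to 0.22 for hemidesmosome genes.

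A joint list of genes induced by low oxygen and genes of glycolysis leaned upward, with NDRG1 at its head. Of 30 measured 21 were above 0 with a median of 0.09, and 17 were higher in all 3 pairs (56.7%, against 16.3% of all genes). The paired voom fit called 5 rises, NDRG1, BNIP3, P4HA2, PFKFB3 and SLC2A1, where 1.35% of all genes rose, but only 1 without pair 1, 1 without pair 2 and 2 without pair 3. BNIP3, a mitophagy receptor, had 7.67, 8.48 and 10.0 RPKM in controls against 13.3, 12.2 and 11.8 in silenced libraries (0.51, SE 0.09, voom adjusted p 0.00960). P4HA2, a collagen prolyl hydroxylase, had 2.16, 2.16 and 2.37 in controls against 3.77, 2.82 and 2.85 in silenced libraries (0.49, SE 0.10, voom adjusted p 0.0181). PFKFB3, an activator of glycolysis, had 12.9, 13.8 and 13.9 in controls against 16.8, 16.7 and 18.8 in silenced libraries (0.36, SE 0.07, voom adjusted p 0.0141). SLC2A1, the glucose transporter, had 35.1, 28.4 and 32.2 in controls against 41.4, 37.0 and 41.0 in silenced libraries (0.32, SE 0.07, voom adjusted p 0.0280). None of these 4 overlapped between groups. On the same list 9 genes were below 0 and 4 were lower in all 3 pairs. Glycolytic enzymes lay on both sides of 0. ALDOA (-0.20), GAPDH (-0.18) and PGK1 (-0.02) were below, LDHA (0.09) and PKM (0.06) above, and none of these enzymes passed.

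Of 33 measured interferon-response genes 21 were above 0 with a median of 0.10 (-0.02 without control 1 and -0.09 without silenced 3), and 2 rose in the paired voom fit, as 1.35% of all genes did. ISG15, a ubiquitin-like protein, had 5.16, 5.96 and 13.4 RPKM in controls against 6.42, 8.04 and 26.1 in silenced libraries (0.68, SE 0.13, voom adjusted p 0.0143). IFIT2 had 1.69, 1.22 and 4.63 in controls against 2.42, 1.29 and 7.0 in silenced libraries (0.48, SE 0.11, voom adjusted p 0.0361). Library 3 was by far the highest of both groups in each gene, and the groups overlapped. Without pair 3 the change of ISG15 was 0.37 (voom adjusted p 0.511) and that of IFIT2 0.34 (0.568), and neither passed without pair 2 (0.0755 and 0.0740), nor IFIT2 without pair 1 (0.124).

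Both metallothionein genes that were measured rose, while MTF1, the zinc-sensing factor that drives them, did not pass. MT2A had 67.1, 50.2 and 47.3 RPKM in controls against 109, 104 and 131 in silenced libraries (1.07, SE 0.13, voom adjusted p 0.000583). MT1X had 1.67, 1.12 and 1.39 in controls against 2.40, 2.81 and 3.29 in silenced libraries (1.02, SE 0.18, voom adjusted p 0.00690), and without pair 2 or without pair 3 its change was 0.90 (voom adjusted p 0.109 and 0.171). Every silenced library lay above every control in both, though these small genes are near copies of each other. MT1X, but not MT2A, shares exon bases with RP11-343H19.2. Their promoters are printed as those of a pair of genes that rose together. MTF1 binds metal response elements whose core is TGCNCNC, and matches to it on either strand, which may overlap, are in capitals in the 250 bases before each start site (RefSeq, GRCh38.p14, read in the sense of the gene).
MT2A (chr16:56608334-56608583, plus strand): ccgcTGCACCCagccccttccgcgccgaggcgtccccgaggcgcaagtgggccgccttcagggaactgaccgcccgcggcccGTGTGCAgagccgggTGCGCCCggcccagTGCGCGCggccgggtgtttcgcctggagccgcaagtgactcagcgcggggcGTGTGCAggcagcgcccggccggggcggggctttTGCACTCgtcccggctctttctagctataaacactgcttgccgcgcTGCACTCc
MT1X (chr16:56682220-56682469, plus strand): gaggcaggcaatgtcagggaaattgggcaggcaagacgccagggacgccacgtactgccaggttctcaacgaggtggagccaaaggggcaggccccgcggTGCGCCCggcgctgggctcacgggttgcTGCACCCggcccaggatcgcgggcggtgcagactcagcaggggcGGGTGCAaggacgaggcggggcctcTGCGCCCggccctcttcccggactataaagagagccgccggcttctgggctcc

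The MT2A promoter held 7 matches and that of MT1X 4. Of 35116 promoters of this length, 49.1% held at least 1 match, 1.77% at least 4 and 0.165% at least 6. A match to so short a core is a description of the sequence, not a bound site.

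HSPB1, a small heat shock protein, rose from 15.8, 23.8 and 24.0 RPKM to 34.5, 39.4 and 32.0 (0.75, SE 0.11, voom adjusted p 0.00315), and its groups did not overlap. It was the only 1 of 19 measured chaperone genes to pass in the paired voom fit, where 1.35% of all genes tested rose. The median of the 19 was 0.04 (-0.02 without silenced 1). CLCA2, a membrane protein of stratified epithelium known as a p53 target, had 2.78, 4.51 and 4.23 RPKM in controls against 6.92, 8.95 and 7.44 in silenced libraries (1.02, SE 0.10, voom adjusted p 7.16e-05; paired limma adjusted p 0.0520). CDKN1A, the cell cycle inhibitor p21, had 2.29, 1.60 and 3.16 in controls against 3.16, 2.45 and 6.72 in silenced libraries, which overlapped (0.79, SE 0.13, voom adjusted p 0.00561). It was the only 1 of 24 measured p53 target genes on the list to pass in the paired voom fit (1.35% of all genes rose). The median over the list was -0.01 (0.01 after centring).

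The clearest downward group was that of NRF2, the transcription factor that raises glutathione synthesis, NADPH supply and iron storage under oxidative stress. Of 29 measured genes on this list 28 were below 0, with a median of -0.24 against -0.03 over all 16185 genes. Lower in all 3 pairs were 23 of them (79.3%, against 22.9%), with pair medians of -0.16, -0.28 and -0.22. The paired voom fit called 11 falls, where 0.875% of all genes fell, and 0 rises, while limma called 0 without pairs and 0 with them, at 14 and 17 with an unadjusted p under 0.05. This count was 6 without pair 1 and 0 without pair 2 or without pair 3, 10 after quantile normalization and 14 in the 6 KYSE510 libraries alone.

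Among the falls were the subunits of glutathione synthesis. GCLM, the modifier subunit of glutamate-cysteine ligase, had 13.0, 15.7 and 13.6 RPKM in controls against 9.85, 9.93 and 9.38 in silenced libraries (-0.53, SE 0.07, voom adjusted p 0.00167). GCLC, its catalytic subunit, had 13.5, 15.1 and 12.8 in controls against 11.2, 12.2 and 10.1 in silenced libraries (-0.31, SE 0.06, voom adjusted p 0.0186). Neither overlapped between groups. FTL, the ferritin light chain that stores iron, had 705, 910 and 956 in controls against 605, 590 and 592 in silenced libraries (-0.51, SE 0.09, voom adjusted p 0.00628). Its silenced libraries were close together, and control 1 was the nearest to them.

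Enzymes of the pentose phosphate pathway, which supplies NADPH, fell by less. PGD had 270, 239 and 232 RPKM in controls against 214, 195 and 182 in silenced libraries (-0.33, SE 0.05, voom adjusted p 0.00590). TKT had 111, 118 and 101 in controls against 97.5, 96.7 and 83.1 in silenced libraries (-0.25, SE 0.05, voom adjusted p 0.0265). Neither overlapped between groups. TALDO1, a later enzyme of the pathway named after its values were seen, did not pass, with 59.5, 69.5 and 65.3 in controls against 56.1, 54.4 and 53.6 in silenced libraries (voom adjusted p 0.0773).

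Of the peroxide-handling genes, SRXN1 had 25.6, 25.4 and 23.9 RPKM in controls against 19.8, 19.7 and 20.5 in silenced libraries (-0.32, SE 0.07, voom adjusted p 0.0366). PRDX1 had 344, 426 and 391 in controls against 302, 339 and 320 in silenced libraries (-0.27, SE 0.06, voom adjusted p 0.0410). Both fell with no overlap. The aldo-keto reductases AKR1C2, AKR1C3 and AKR1B10, which are close copies of their family, fell by 0.28, 0.58 and 0.31 (voom adjusted p 0.0333, 0.0167 and 0.0414). HMOX1, heme oxygenase, and NQO1, a quinone reductase named after its values were seen, are much-used readouts of NRF2 and did not pass. HMOX1 had 2.07, 3.83 and 2.13 in controls against 1.87, 2.25 and 1.39 in silenced libraries (-0.53, SE 0.14, voom adjusted p 0.0754), which overlapped. NQO1 had 188, 173 and 161 in controls against 156, 138 and 141 in silenced libraries (-0.26, SE 0.07, voom adjusted p 0.0633), which did not.

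The promoters of GCLM and NQO1 are printed as members whose levels were lower in every pair. NRF2 binds antioxidant response elements with the core TGANNNNGC, and matches on either strand are in capitals in the 250 bases before the start site (RefSeq, GRCh38.p14, sense of the gene).
GCLM (chr1:93909431-93909680, minus strand): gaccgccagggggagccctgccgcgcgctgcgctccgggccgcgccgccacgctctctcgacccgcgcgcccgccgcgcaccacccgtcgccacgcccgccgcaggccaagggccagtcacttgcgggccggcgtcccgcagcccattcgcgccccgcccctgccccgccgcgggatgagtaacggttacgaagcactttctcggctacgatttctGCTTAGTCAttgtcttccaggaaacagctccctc
NQO1 (chr16:69726561-69726810, minus strand): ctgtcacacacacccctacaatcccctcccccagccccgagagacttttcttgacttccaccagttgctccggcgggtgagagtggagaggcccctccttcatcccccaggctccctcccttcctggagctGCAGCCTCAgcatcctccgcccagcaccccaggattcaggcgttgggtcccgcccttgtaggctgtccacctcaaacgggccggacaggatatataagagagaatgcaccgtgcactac

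Each held 1 match, on the strand opposite to the gene. Of the 20 promoters of the NRF2 list that were matched to RefSeq, 12 held the core, and of all 35116 promoters 35.2% did.

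In KYSE150 the median of the NRF2 list was 0.02, against 0.08 over all 16185 genes. The gap to all genes was thus smaller there than in KYSE510 (-0.24 against -0.03). In the paired voom fit 2 of its members rose and 1 fell there. The difference in change between the lines was tested in the same model, and it passed in 1353 of 17823 genes (7.59%), of which 1341 met the KYSE510 rule. Of the 1353, 381 were above 0 and 972 below. After quantile normalization 959 passed, 576 above 0 and 383 below, so the balance of signs depends on normalization. In limma the difference passed in 0 genes with and without pairs, with 4610 and 2181 at an unadjusted p under 0.05. Of the 29 NRF2 genes the voom difference passed for 5, among them FTL, GCLM, SRXN1 and TALDO1, each lower in KYSE510. FTL changed by -0.51 in KYSE510 and 0.36 in KYSE150 (difference -0.88, voom adjusted p 0.0101), and GCLM by -0.53 and 0.02 (difference -0.55, voom adjusted p 0.0213). The voom count of 1353 became 1529 without KYSE510 pair 1, 4 without pair 2 and 6 without pair 3.

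**Figure D5:**
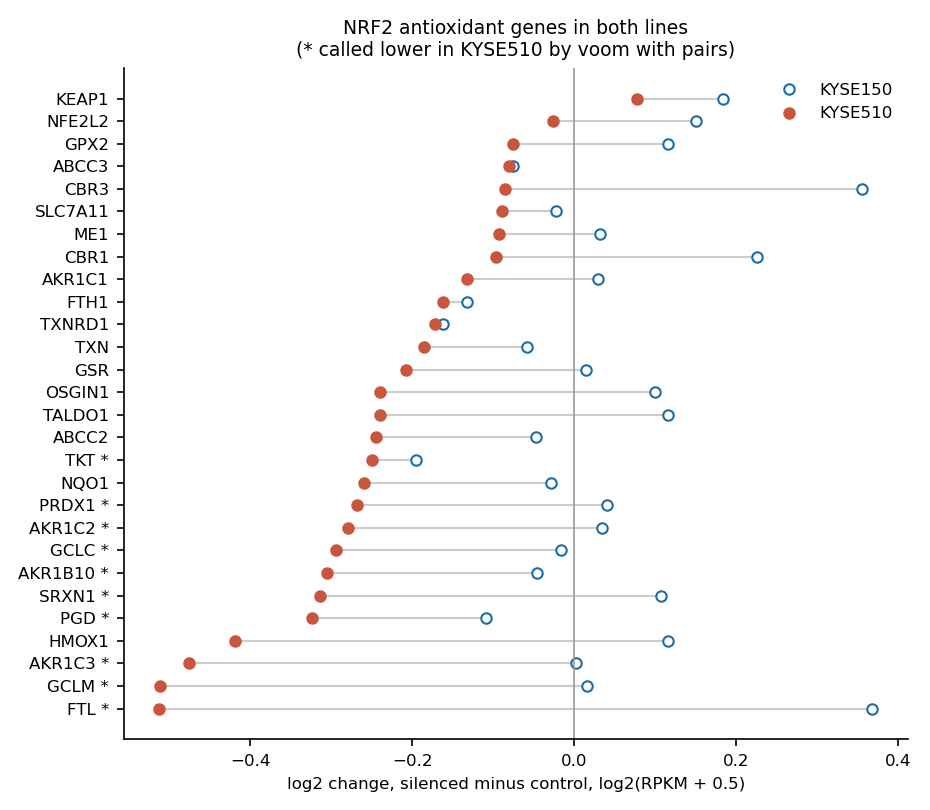
Log2 change (silenced minus control) of 28 of the 29 NRF2 list genes, a row each, in KYSE510 (filled points) and KYSE150 (open points), with an asterisk for genes called by the paired voom fit in KYSE510. Over the whole list 28 of 29 genes lie below 0 in KYSE510, with a median of -0.24, while the changes in KYSE150 spread around 0, with a median of 0.02. The medians over all 16185 genes were -0.03 in KYSE510 and 0.08 in KYSE150.

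The groups tied to the title's question moved little. Of 52 measured MYC-induced genes 37 were below 0 with a median of -0.06, 21 were lower in all 3 pairs (40.4%, against 22.9% of all genes), and 1 fell in the paired voom fit (0.875% of all genes tested did). This was ODC1, the first enzyme of polyamine synthesis, at 59.5, 63.1 and 60.4 RPKM in controls against 47.9, 50.6 and 50.6 in silenced libraries (-0.29, SE 0.07, voom adjusted p 0.0440). Of 49 processome genes, which build the small ribosomal subunit with UTP3, 33 were below 0 with a median of -0.05. Lower in all 3 pairs were 19 of them (38.8%, against 22.9%) and higher 2, with pair medians of -0.13, -0.04 and 0.02. In the paired voom fit 1 fell. This was KRR1, at 7.65, 7.37 and 7.78 in controls against 6.67, 5.86 and 6.55 in silenced libraries (-0.26, SE 0.06, voom adjusted p 0.0492). Both genes were apart between groups, and neither passed in a voom fit that left out a pair. Of 36 pro-apoptotic genes 18 were above and 18 below 0 with a median of -0.001 (0.03 after centring). In the paired voom fit 1 of them rose, BNIP3, where 1.35% of all genes tested rose. Of 17 anti-apoptotic and 40 proliferation genes 0 passed in limma or in the paired voom fit, which gave 3 and 5 of them an unadjusted p under 0.05.

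Large sets of housekeeping genes sat slightly below 0. Of 79 cytosolic ribosomal protein genes 69 were below 0 with a median of -0.12, and 56 were lower in all 3 pairs (70.9%, against 22.9%). In limma and in the paired voom fit 0 passed, with 5 and 33 at an unadjusted p under 0.05, and RPL37, with the values 63.2, 76.8 and 79.1 RPKM in controls against 56.0, 54.8 and 61.8 in silenced libraries, had a voom adjusted p of 0.0624. In voom with pairs on the 6 KYSE510 libraries alone 15 of them fell. Of 60 nuclear genes of the respiratory chain 49 were below 0 with a median of -0.10, and 0 passed in the paired voom fit or in limma (12 and 2 at an unadjusted p under 0.05). Short genes lay lower over the whole table: the median change was -0.05, -0.03 and -0.02 in genes of short, middle and long exon length, split evenly, and the part of length in these lists was not tested. Of 34 cholesterol synthesis and lipid genes 27 were below 0 with a median of -0.10. In the paired voom fit 1 of them fell (0.875% of all genes tested did). This was FASN, fatty acid synthase, at 49.6, 68.7 and 55.0 in controls against 40.4, 46.6 and 38.4 in silenced libraries (-0.46, SE 0.07, voom adjusted p 0.00387).

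The largest steps without overlap among genes with a mean RPKM of at least 1 included small genes counted on few reads. RP11-422P24.9 fell, with 5.94, 3.01 and 5.30 RPKM in controls against 1.27, 1.73 and 1.1 in silenced libraries on 9 to 48 reads (-1.77, SE 0.34, voom adjusted p 0.0121). The small RNA genes MIR425, MIR1227, SNORD69 and RNA5SP392 and the genes RP11-242D8.3, RP11-331N16.1, AC091180.1 and TPT1P6 did not pass in any of the 3 fits. Their libraries held between 0 and 29 reads, and RNA5SP392 lies wholly within an exon of C15orf52. Such values say little about the genes at this depth.

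Some of the changes were shared with KYSE150. Of the 383 KYSE510 genes called by the paired voom fit, 152 passed in KYSE150 with the same sign, 115 higher and 37 lower, and 14 with the opposite sign. In KYSE150 the fit called 3210 of all 16185 genes of the rule, so part of the overlap would arise without any link. The 152 are 39.7% of the KYSE510 calls and 4.74% of those 3210, and the excess was not tested. VAMP3, TMED10, TNIP2, SLC16A14 and PEX3 fell and COL17A1, KRT14, KRT5, S100A9, NDRG1, MT2A and HSPB1 rose in both lines. TMED10 had log2 changes of -1.0 in KYSE510 and -1.08 in KYSE150 in the paired voom fit, and KRT14 1.61 and 2.11. The difference between lines did not pass for these 12 genes, with voom adjusted p-values of 0.0563 (PEX3) and above.

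Other KYSE510 changes differed from those in KYSE150. The difference passed for 88 of the 383 genes, and for 1341 of all 16185 genes of the rule. FN1 changed by 0.71 in KYSE510 and -0.05 in KYSE150 (difference 0.76, voom adjusted p 0.00644), PHLDB2 by 1.14 and 0.06 (difference 1.08, voom adjusted p 0.00137), and LINC01468 by 0.80 and -0.28 (difference 1.08, voom adjusted p 0.000886). Of the 88 genes 2 had a mean under 10 reads in the KYSE150 libraries. C8orf4 had 0 reads in all 6 of them and COL5A1 had 0 to 6, so a difference from KYSE150 is not read for either. SPP1, with 0 to 2 reads there, cannot be compared between the lines either.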

How the data were processed

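RNA sequencing of 6 KYSE510 and 6 KYSE150 libraries was analysed from a deposited table of RPKM per gene, which the authors divided by exon length and by the reads assigned to genes. The submitters' processing notes name HISAT2, DESeq and GRCh38 without their roles, and the use of strand in counting is not given in the sources used here. Multiplied by length, 100% of values came out as whole reads in each library (within 0.01 read), and these reads were recovered. Groups and replicate numbers come from the titles.

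Genes reaching 0.5 RPKM in 3 or more of the 12 libraries were tested with limma 3.58.1 in R 4.3.3 on log2(RPKM + 0.5), a scale that understates changes of low genes. The fit has 4 group means, an eBayes trend, two-sided p-values adjusted by the Benjamini-Hochberg method over 17823 genes and a threshold of 0.05. The same fit was run with a block for each same-numbered pair (4 residual degrees of freedom, against 8), and voom was run on recovered reads with that block. Deviations of same-numbered control and silenced KYSE510 libraries correlated at 0.297 to 0.459 across genes, and of other-numbered ones at -0.290 to -0.031, so the numbers were taken to pair libraries. The fits were also run on simulated counts with known changes and a built-in pair effect. That run checks the code and does not bear on the calls in these libraries.

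The genes described, the 34 gene lists and the naming rule were chosen with earlier results of these data known. The rule names HCP5, MYC, UTP3 and VAMP3, every gene passing limma without pairs, up to 20 passing with pairs, and the 6 largest rises and 6 largest falls without overlap at a mean RPKM of at least 1. It adds up to 4 members of each list with the same sign in all 3 pairs, and members needed to say what a list holds. Genes listed on more than 1 chromosome (56 of 16185) or under date-form names (16) were not named, and some list members are not reported here. Of 166 genes the rule and text considered, 112 were matched to a RefSeq promoter by symbol. 3′ UTR words were read from GENCODE release 29 transcripts.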

Additional observations from a re-analysis of the deposited data

Results flagged for a closer look

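The groups hold 3 libraries each, too few to test a single library as an outlier. In 23 named genes the change in KYSE510 differed from that in KYSE150 by the test of the difference itself in voom with pairs. In limma 0 of them passed for the difference, with or without pairs. Values are KYSE510 change minus KYSE150 change on the log2 scale. The difference was above 0 for C8orf4 (2.57), COL5A1 (2.21), RP11-445F12.1 (1.58), LINC01468 (1.08), PHLDB2 (1.08), IFIT2 (0.98), MMP2 (0.86), FN1 (0.76), PLEK2 (0.75), PTHLH (0.66), PROCR (0.64) and COL4A2 (0.45). C8orf4 had 0 reads in every KYSE150 library and COL5A1 had 0 to 6, so their values rest on a line where the gene was hardly counted and show no difference in response. It was below 0 for RP11-422P24.9 (-3.22), TPT1P6 (-1.77), FTL (-0.88), CXCL16 (-0.70), GCLM (-0.55), SURF4 (-0.52), NSF (-0.46), SRXN1 (-0.43), FASN (-0.42), MYC (-0.42) and TALDO1 (-0.36). RP11-422P24.9 had 2 to 23 reads in KYSE150. CXCL16, a chemokine named after its values were seen, had 11.7, 13.96 and 18.1 RPKM in KYSE510 controls and 9.13, 8.81 and 11.6 in silenced libraries. MYC was lower in 3 of 3 KYSE510 pairs and did not pass within KYSE510.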

How the results depend on the processing

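The count of 7 genes changed in KYSE510 was 3 with a pseudocount of 0.1, 44 with no filter, 11 after quantile normalization, 0 in the 6 libraries alone and 2 to 7 without 1 library. With the replicate block it was 20, and 0 in the 6 libraries alone, 2 without pair 2 and 0 without pair 3. Voom on recovered reads with the block gave 397. Chosen after seeing the data, the block gave 29 with median centring, 40 with quantile normalization and 37 with the filter on the KYSE510 libraries, and voom with the block gave 243, 63 and 55 without pairs 1, 2 and 3, 531 with quantile normalization and 681 in the 6 libraries alone. The count of 0 genes whose change differs between lines was 10 with no filter, 4 with the block and without pair 2, and 1 with the block and the filter on the KYSE510 libraries. In voom with the block it was 1353 (381 above 0 and 972 below), and 1529, 4 and 6 without pairs 1, 2 and 3. With quantile normalization that voom count was 959 (576 above 0 and 383 below). HCP5 passed in voom with the block, at -0.78, at -0.80 with quantile normalization and at -0.78 in the 6 libraries alone, and its limma change was -0.72 to -0.35 without 1 library. Signs turned for ISG15 and IFIT2 without silenced replicate 3: over the fits without 1 library ISG15 ran from -0.05435 to 0.94 and IFIT2 from -0.23 to 0.81. UTP3 ran from -0.008028 (without control replicate 3) to 0.12 in those fits, and was -0.0295 with the block without pair 3 and -0.02948 in voom with the block without pair 3. The cause of these shifts was not tested. Of the 34 lists, 21 kept the sign of their median in every alternative run. With 3 libraries a group, genes that did not pass are not shown to be unchanged.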
